A study of Mus musculus with 8 samples.

Results

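The matrix proteases and their inhibitors were taken from the RNA sequencing of hair follicle stem cells as every gene whose symbol belongs to the matrix metalloproteinases (Mmp), the ADAM and ADAMTS proteases, the ADAMTS-like proteins (Adamtsl) or the tissue inhibitors Timp1 to Timp4. This name rule took 84 of the 46517 genes in the expression table: 23 Mmp, 33 Adam, 19 Adamts, 5 Adamtsl and 4 Timp genes. No measured value entered the name rule, which was set with earlier results of these data known. Male mice aged 70 days, in the second telogen (the resting stage of the hair cycle), gave the back skin. Stem cells were sorted from it as negative for DAPI and Sca-1 and positive for integrin alpha 6 and CD34.

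The 8 libraries formed 4 groups of 2 animals, all with the reporter R26-YFPfl/fl. WT (animals 34 and 82) carried NFIBfl/fl and NFIXfl/fl and had no Cre. NFIB-cKO (81 and 85) carried Sox9-CreER and NFIBfl/fl. NFIX-cKO (32 and 88) carried Sox9-CreER with NFIXfl/fl and with NFIBfl/+, so these animals also had 1 floxed Nfib allele. NFIB/X-dKO (33 and 36) carried Sox9-CreER with both NFIBfl/fl and NFIXfl/fl. The proteins NFIB and NFIX are nuclear factor I (NFI) transcription factors. The Cre is driven by Sox9, and the knockout cells were additionally gated on YFP, which the WT cells were not, so Cre, the YFP gate and the deletion cannot be told apart in any contrast with WT. The animals fell into 2 runs of numbers, 32 to 36 and 81 to 88. WT and NFIX-cKO had 1 animal in each run, both NFIB-cKO animals lay in the higher run and both NFIB/X-dKO animals in the lower run.

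Matrix metalloproteinases are zinc enzymes that cut collagens, laminins and other matrix proteins, some secreted and some anchored in the plasma membrane. ADAM proteins are membrane-bound relatives that release the outer parts of receptors and growth factors, and ADAMTS proteins are secreted relatives that cut proteoglycans and procollagens. ADAMTS-like proteins share the ancillary domains of ADAMTS enzymes but lack the protease domain, and several bind fibrillin microfibrils. The TIMP proteins block the active site of these enzymes, and TIMP3 differs from the others in that it binds the matrix itself and also inhibits several ADAM and ADAMTS enzymes. In the hair follicle the stem cells rest on a basement membrane, which such enzymes remodel.

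Promoter sequences were examined because the deleted genes encode DNA-binding factors and because the families held members at very different levels. They were taken from RefSeq (GRCm38.p6) as the 250 bases before each start site, in which 53 of the 84 members had an entry, with 58 windows. Both strands were searched for TTGGC, the short NFI motif, for the full NFI palindrome, in which 5 bases separate TTGGC from its reverse complement, for TGANTCA, the AP-1 motif, and for the TATA box letters TATAAA. The short NFI motif was present in 36.2% of the members' windows and in 41.5% of all 32851 windows, and the palindrome in 0 member windows and in 0.0365% of all windows. The sequences shown first are those of 3 members that passed a test in the knockouts. In the printed sequences, bases that GENCODE M21 places in an exon are left out, and capitals mark TTGGC on either strand. Timp3 and Adamtsl3 held no TTGGC in the window, Adamtsl4 held 1 at 250 bases before the start, Adam10 held 1 at 226 bases and Mmp15 held 1 at 12 bases, which GENCODE M21 places inside the Mmp15 transcript. A match or its absence describes these letters only.
Timp3 (chr10:86300162-86300371, plus strand): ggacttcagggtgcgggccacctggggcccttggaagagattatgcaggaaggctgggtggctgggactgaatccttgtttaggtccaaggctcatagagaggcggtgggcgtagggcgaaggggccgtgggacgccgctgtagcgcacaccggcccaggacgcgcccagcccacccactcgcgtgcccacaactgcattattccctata
Adamtsl4 (chr3:95687918-95688167, minus strand): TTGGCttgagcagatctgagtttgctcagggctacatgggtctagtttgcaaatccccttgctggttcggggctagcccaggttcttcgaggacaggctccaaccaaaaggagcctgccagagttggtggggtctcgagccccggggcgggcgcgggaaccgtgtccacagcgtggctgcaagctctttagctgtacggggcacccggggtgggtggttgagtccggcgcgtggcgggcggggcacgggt
Adam10 (chr9:70678732-70678981, plus strand): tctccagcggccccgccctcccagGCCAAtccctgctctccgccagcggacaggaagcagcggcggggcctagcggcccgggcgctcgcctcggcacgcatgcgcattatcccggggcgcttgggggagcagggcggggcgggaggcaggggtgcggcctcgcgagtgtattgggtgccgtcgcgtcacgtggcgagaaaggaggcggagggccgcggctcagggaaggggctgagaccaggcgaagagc

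The second set shows the AP-1 motif in capitals in 3 genes of the Mmp cluster on chromosome 9, which stood at or under 0.36 TPM in every library. TGANTCA was present in 20.7% of the members' windows and in 6.75% of all windows. It was present in 0 of the 20 members with a window that were expressed enough to be tested by limma on all 8 libraries. Of the 33 not tested by limma, 12 held it, of which Mmp12, Mmp3 and Adam19 were tested by edgeR on counts. Among all genes with a window, 5.5% of those tested by limma and 9.29% of those not tested by it held the motif. TATAAA was divided in a like way, with 1 of 20 tested members and 12 of 33 untested members, against 8.03% of all tested and 19.1% of all untested genes. Of the 10 cluster genes, 8 had an AP-1 motif at a listed start and 7 had TATAAA. Mmp12 and Mmp7 each have a second listed start without the AP-1 motif and are not printed.
Mmp3 (chr9:7445722-7445821, plus strand): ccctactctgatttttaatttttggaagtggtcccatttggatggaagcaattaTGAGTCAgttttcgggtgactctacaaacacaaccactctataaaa
Mmp10 (chr9:7502242-7502341, plus strand): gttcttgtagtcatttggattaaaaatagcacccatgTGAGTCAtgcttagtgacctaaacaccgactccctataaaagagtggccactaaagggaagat
Mmp13 (chr9:7272414-7272513, plus strand): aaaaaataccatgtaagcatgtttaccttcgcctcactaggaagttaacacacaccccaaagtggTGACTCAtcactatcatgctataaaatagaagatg

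Values are given in TPM, a length-corrected level with a fixed library total, that the authors deposited for all 8 libraries. Expected counts were at hand for 5 libraries, with totals from 57173266 to 66854625, and no depth is known for NFIB-cKO 81, WT 34 or WT 82. A count of 3 in those 5 libraries amounts to between 0.0449 and 0.0525 CPM, which covers counting error only. The stem cell markers were high in all libraries (Krt5 from 11780 to 15703 TPM, Krt15 from 7507 to 14487 and Cd34 from 811 to 1144). They were not level between genotypes: of the 9 tested, Lhx2 and Lgr5 fell by limma in NFIB/X-dKO against WT (-1.42, adjusted p = 0.00612, and -1.57, adjusted p = 0.0128) and across the NFIB-deleted libraries (-0.88, adjusted p = 0.0104, and -0.98, adjusted p = 0.0211). Krt14 and Krt15 stood at -0.98 and -0.63 in NFIB/X-dKO against WT, neither past the test. Itga6 went the other way in that contrast, also not past the test (0.65, limma, adjusted p = 0.0873). Ly6a, the gene of the negative sort marker Sca-1, was not level either. It stood at 11.94 and 10.26 TPM in WT, 7.55 and 6.46 in NFIB-cKO, 36.95 and 10.94 in NFIX-cKO and 28.66 and 24.44 in NFIB/X-dKO. Its differences by limma were not past the test (NFIB/X-dKO against WT 1.19, adjusted p = 0.272, and against NFIB-cKO 1.78, adjusted p = 0.246). The part of these marker differences in the members' differences was not tested. The labels do not give the deleted part of Nfib or Nfix, so the total level of either gene checks no label and none is given. A gene entered the limma test with at least 1 TPM in at least 2 libraries, which 15434 genes did. Differences are in log2(TPM + 1), which understates changes of weakly expressed genes, and a gene was called at a Benjamini-Hochberg adjusted p under 0.05 over all genes tested.

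Most of the members were very low in these cells. Of the 84, 56 stayed under 1 TPM in every library, and 11 of those were at 0 everywhere: the Adam2, Adam20, Adam25, Adam26a, Adam26b, Adam34, Adam6a and Adam6b genes of the ADAM family and Mmp1a, Mmp7 and Mmp20. All 11 also had 0 expected counts in the 5 libraries with counts. A further 16 members peaked between 1 and 10 TPM. The 12 that reached 10 TPM held between 93.1% and 95.8% of the summed member TPM of a library. Summed over all members, the level was 833.4 and 866.68 TPM in WT, 973.95 and 885.05 in NFIB-cKO, 703.83 and 858.26 in NFIX-cKO and 765.97 and 830.32 in NFIB/X-dKO. The summed level of the NFIB/X-dKO libraries lay below both WT libraries by less than the gap between the NFIX-cKO animals.

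The families differed more than that total. The ADAMTS-like genes summed to 170.75 and 215.09 TPM in WT, 130.96 and 107.34 in NFIB-cKO, 111.46 and 146.2 in NFIX-cKO and 51.31 and 59.77 in NFIB/X-dKO. The knockouts thus all lay below WT, and NFIB/X-dKO lay below every other library. The TIMP genes summed to 261.53 and 189.11 TPM in WT, 292.56 and 208.55 in NFIB-cKO, 201.77 and 179.54 in NFIX-cKO and 295.63 and 318.74 in NFIB/X-dKO, the last being the highest libraries. The Mmp genes summed to 154.56 and 179.65 TPM in WT, 246.58 and 215.86 in NFIB-cKO, 189.41 and 194 in NFIX-cKO and 139.06 and 153.47 in NFIB/X-dKO. Here NFIB-cKO was highest and NFIB/X-dKO was lowest. These sums are descriptions and follow the few highest genes of each family.

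**Figure D1:**
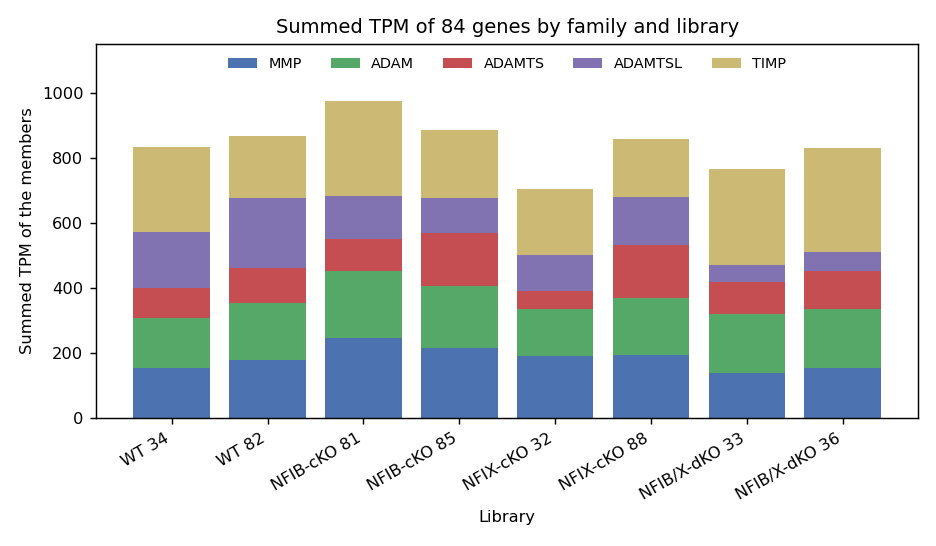
Stacked bars of the summed TPM of the 84 members in each of the 8 libraries, 1 colour for each family. The Adamtsl sum is lowest in NFIB/X-dKO (51.31 and 59.77 TPM) and the Timp sum is highest there (295.63 and 318.74 TPM).

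In NFIB/X-dKO against WT, which asks what the cells change when both factors are lost, 3 members rose (Timp3, Adamtsl1 and Adam10) and 1 fell (Adamtsl4) of the 28 tested. Over all genes tested 2.88% were called, 1.62% higher and 1.26% lower. A further 8 members had an unadjusted p under 0.05 and were not called, making 12 in all, beside 16.8% of all genes. The median difference of the 28 was -0.23, beside 0.16 over all genes tested, and 11 were positive and 17 negative. The TPM ranges of the groups did not overlap for 19 of the 28 members, beside 55.5% of all genes. Dividing the TPM by median-of-ratios factors moved the median of all genes in this contrast from 0.16 to 0.00, and the 4 called members kept their direction and their call. The 28 passed a minimum on level, so these counts do not speak for the 84.

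In NFIB-cKO against WT, the loss of NFIB alone, 1 member of 28 rose (Timp3) and 0 fell, beside 0.719% of all genes (0.292% higher and 0.428% lower). The median was -0.06 beside 0.00 over all genes, and 8 members had an unadjusted p under 0.05, beside 12.6% of all genes. In NFIX-cKO against WT, 0 of 28 members were called by limma, beside 0.149% of all genes. Here 5 members and 6.81% of all genes had an unadjusted p under 0.05, and both medians were -0.05. The members with the smallest p in that contrast, none past the test, were Adam1a (-0.77, adjusted p = 0.462), Adamtsl1 (0.95, adjusted p = 0.553) and Adamtsl4 (-0.79, adjusted p = 0.605). Both contrasts and the one above share the WT libraries.

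NFIB/X-dKO against NFIX-cKO asks what the loss of the remaining NFIB adds. It was tested with edgeR on the expected counts of those 4 libraries. Of the 50 members tested, 1 rose (Timp3) and 1 fell (Adamtsl3), beside 0.322% of 18349 genes (0.12% higher and 0.202% lower). The median of the 50 was -0.24 beside 0.00 over all genes, and 18 had an unadjusted p under 0.05, beside 14.7% of all genes. With DESeq2, 11 of 49 members with an adjusted p were called, 3 higher and 8 lower, beside 4.47% of all genes (1.81% higher and 2.66% lower). Limma on the 8 libraries called 2 (Timp3 higher and Adamtsl4 lower), beside 0.784% (0.46% higher and 0.324% lower). Without NFIB/X-dKO 33, and likewise without NFIB/X-dKO 36, edgeR called 0 members and 0 genes of any kind. Without NFIX-cKO 32, and likewise without NFIX-cKO 88, it called more members, with the lone NFIX-cKO library taken to vary like the NFIB/X-dKO pair. The share over all genes in these fits is not given, so that rise is not a result about the members. The count of calls in this contrast therefore turns on the tool and on each of the 4 libraries. In NFIB/X-dKO against NFIB-cKO, whose animals lie in different number runs, 0 of 28 members were called by limma, beside 0.227% of all genes. Of these members 8 had an unadjusted p under 0.05, beside 17.2% of all genes. Those with the smallest p, none past the test, were Adamtsl4 (-1.77, adjusted p = 0.0760), Adamtsl1 (1.15, adjusted p = 0.240) and Adamts3 (-0.86, adjusted p = 0.246).

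The comparison with the most libraries set the 4 NFIB-deleted libraries (NFIB-cKO and NFIB/X-dKO) against the 4 NFIB-carrying ones (WT and NFIX-cKO), with 2 animals of each number run on either side. NFIX-cKO counted as NFIB-carrying with its 1 floxed allele. Of the 28 members tested, 3 rose (Timp3, Adam10 and Adamts5) and 3 fell (Adamtsl3, Adamtsl4 and Mmp15), beside 2.48% of all genes (1.48% higher and 0.991% lower). The median was -0.09 beside 0.10 over all genes, and 11 members had an unadjusted p under 0.05, beside 15.4% of all genes. The TPM ranges of the 2 sides did not overlap for 5 of the 28 members, all of them called, beside 8.95% of all genes, and those of Adamtsl4 overlapped. Without NFIB-cKO 81, NFIB-cKO 85, NFIB/X-dKO 33 or NFIB/X-dKO 36 the count was 1 (Timp3), and without any single WT or NFIX-cKO library it was 4. The libraries are the same as in the contrasts above, so their calls are not independent of these. The non-additive contrast, which asks whether the effect of losing NFIX differs with NFIB status, called 0 of 28 members with limma, beside 0.117% of all genes. In it 2 members had an unadjusted p under 0.05, beside 9.43% of all genes: Adamtsl4 (-0.98 ± 0.36 SE) and Timp3 (0.63 ± 0.26 SE), each with an adjusted p of 0.519. Mmp14 came next (-1.02 ± 0.45 SE, adjusted p = 0.519). The contrast takes NFIB/X-dKO against NFIB-cKO, whose animals lie in different number runs, minus NFIX-cKO against WT. A difference between the number runs would therefore enter it.

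**Figure D2:**
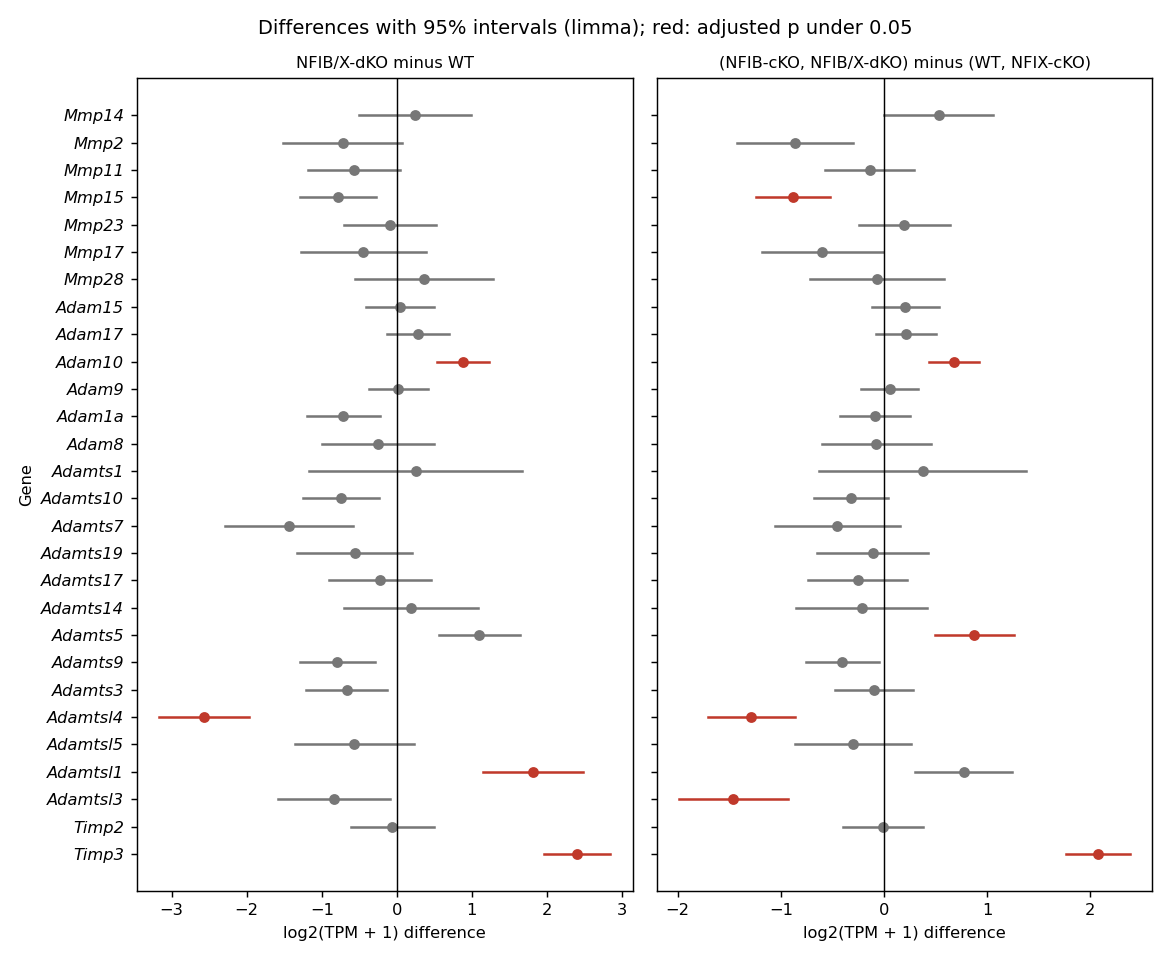
Difference in log2(TPM + 1) of the 28 tested members, with 95% intervals from limma, in NFIB/X-dKO against WT (left) and in the NFIB-deleted against the NFIB-carrying libraries (right), called members in red. Timp3 lies farthest right in both panels (2.41 and 2.07), Adamtsl4 farthest left on the left (-2.56) and Adamtsl3 farthest left on the right (-1.46).

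Timp3 (chr10:86300372-86349506, mm10, plus strand), the matrix-bound inhibitor, was the only inhibitor gene called in any contrast. It stood at 18.18 and 23.48 TPM in WT, 81.69 and 63.95 in NFIB-cKO, 21.97 and 19.96 in NFIX-cKO and 105.56 and 122.79 in NFIB/X-dKO. All 4 NFIB-deleted libraries lay above all 4 NFIB-carrying ones, NFIX-cKO lay within the range of WT, and NFIB/X-dKO lay above NFIB-cKO. By limma it rose by 2.41 ± 0.19 (SE) in NFIB/X-dKO against WT (adjusted p = 0.00256), by 1.76 ± 0.19 in NFIB-cKO against WT (adjusted p = 0.0152) and by 2.07 ± 0.13 across the NFIB-deleted libraries (adjusted p = 0.00270). The NFIX-cKO difference from WT was 0.02 ± 0.19 (adjusted p = 0.998), with a 95% interval from -0.42 to 0.46, and the further step from NFIB-cKO to NFIB/X-dKO was 0.65 ± 0.19 (adjusted p = 0.256). Expected counts of 3986 and 4052.09 in NFIX-cKO stood against 17679.12 and 21662.13 in NFIB/X-dKO, a rise of 2.21 by edgeR (adjusted p = 0.0457).

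The Timp3 calls in NFIB/X-dKO against WT and across the NFIB-deleted libraries were kept in every alternative run. The call in NFIB-cKO against WT ended within the higher number run (1.58, adjusted p = 0.0807), with no minimum on TPM (adjusted p = 0.0593), without WT 34 (1.58, adjusted p = 0.0699), without NFIB-cKO 81 (1.58, adjusted p = 0.109) and without NFIB-cKO 85 (1.93, adjusted p = 0.0900). The edgeR call ended without NFIB/X-dKO 33 (2.32, adjusted p = 0.173) and without NFIB/X-dKO 36 (2.09, adjusted p = 0.273). Timp3 lies inside the antisense gene Syn3, whose exons share 1733 of the 8144 exon bases of Timp3, and Syn3 stood between 0.4 and 0.93 TPM in all libraries. Fibroblasts are another cell type known to make Timp3. Of 7 fibroblast markers, 3 were tested by limma. The summed TPM of the 7 was 37.3 and 46.04 in WT, 106.79 and 78.62 in NFIB-cKO, 47.53 and 58.49 in NFIX-cKO and 74.66 and 88.23 in NFIB/X-dKO. Col1a1 rose in NFIB/X-dKO against WT (1.97, limma, adjusted p = 0.0219), in NFIB-cKO against WT (2.12, adjusted p = 0.0339) and across the NFIB-deleted libraries (2.22, adjusted p = 0.00497). Col1a2 stood at 11.76 and 8.01 TPM in WT, 9.22 and 3.26 in NFIB-cKO, 10.6 and 33.56 in NFIX-cKO and 2.17 and 2.81 in NFIB/X-dKO, lowest in NFIB/X-dKO, without passing the test (-1.63 in NFIB/X-dKO against WT, adjusted p = 0.223). Vim ran from 12.83 to 22.03 TPM, and Col3a1, Pdgfra, Dcn and Lum stayed at or under 0.45, 0.17, 0.34 and 0.04 TPM in every library. The part of fibroblast RNA in the Timp3 result was not tested. Fewer cells of a type and less RNA per cell cannot be told apart in such bulk libraries.

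No other inhibitor gene was called. Timp2 (chr11:118301069-118355740, minus strand), which both inhibits MMP2 and helps MMP14 to activate it, was the highest of the TIMP genes: 243.07 and 165.35 TPM in WT, 210.12 and 144.01 in NFIB-cKO, 179.40 and 159.00 in NFIX-cKO and 189.46 and 195.21 in NFIB/X-dKO. The ranges of all 3 knockout groups overlapped that of WT, and the WT animals alone differed by more than any pair of group means. The difference from WT was -0.06 ± 0.23 (SE) in NFIB/X-dKO (adjusted p = 0.896, 95% interval -0.61 to 0.49). Timp1, a secreted inhibitor induced in inflamed tissue, did not reach the limma minimum. It stood at 0.28 and 0.28 TPM in WT, 0.75 and 0.59 in NFIB-cKO, 0.39 and 0.57 in NFIX-cKO and 0.60 and 0.74 in NFIB/X-dKO. Every knockout library lay above WT, and the NFIB-deleted libraries lay above all others, at between 12 and 22 expected counts in the libraries with counts. Against NFIX-cKO the NFIB/X-dKO difference was 0.19 ± 0.51 (edgeR, adjusted p = 0.884). Timp4, a TIMP of heart and brain, was at or under 0.01 TPM. On the length-corrected TPM scale, the mean level of Timp3 in WT was 20.83 ± 3.75 (SD, n = 2) beside 204 ± 54.96 for Timp2. In NFIB/X-dKO it was 114.2 ± 12.2 beside 192 ± 4.07.

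**Figure D3:**
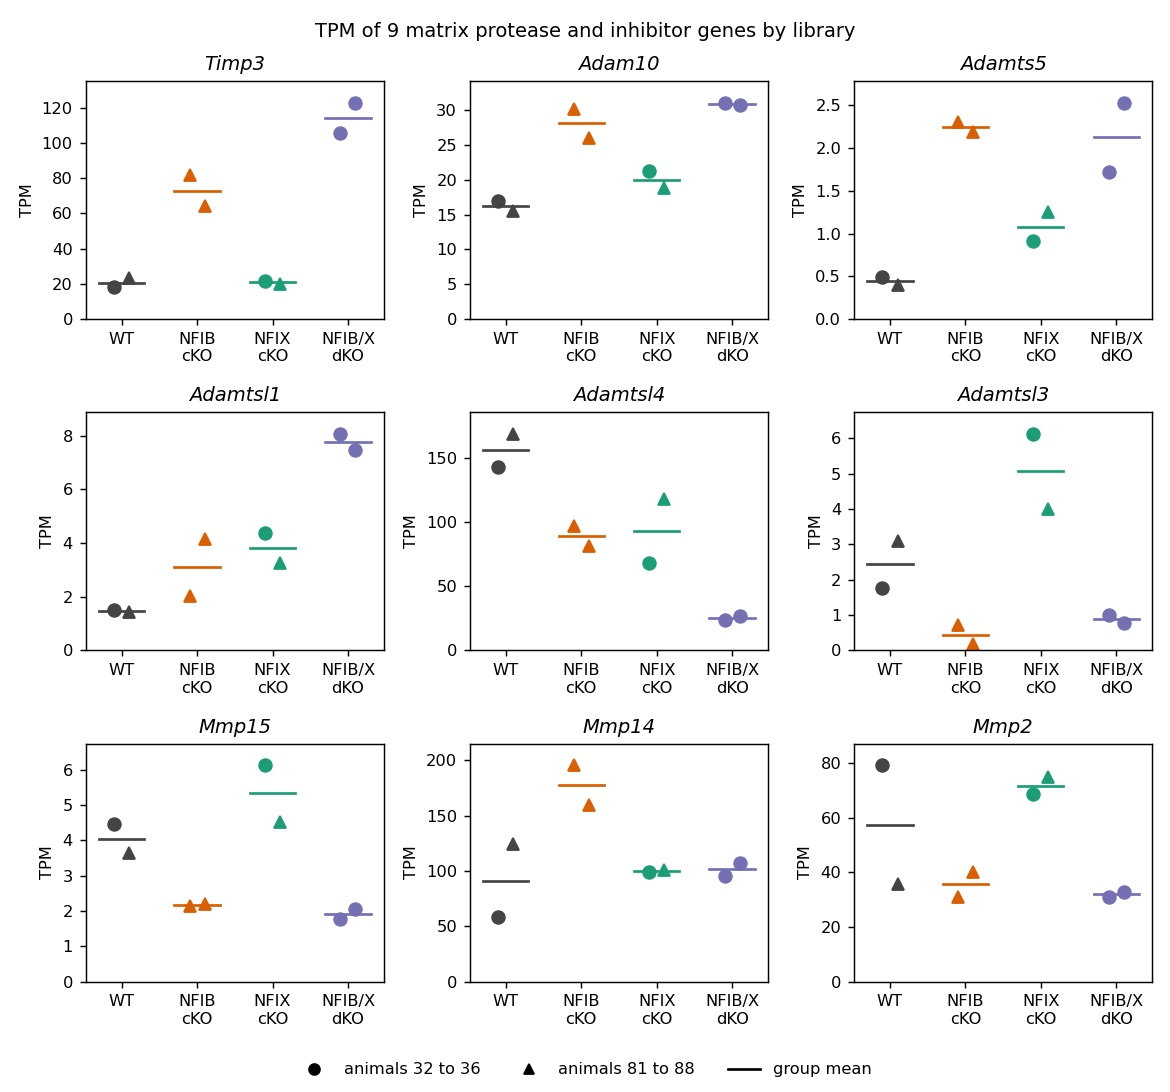
TPM of 9 members in each library by genotype, with circles for animals 32 to 36, triangles for animals 81 to 88 and lines for group means. Timp3 lies between 63.95 and 122.79 TPM in the 4 NFIB-deleted libraries and between 18.18 and 23.48 in the others, and Adamtsl4 lies at 23.95 and 26.92 TPM in NFIB/X-dKO.

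Of the 23 Mmp genes, 7 passed the limma minimum, and the only called member in any limma contrast was Mmp15 (chr8:95352268-95375080, plus strand), a membrane-anchored enzyme that can activate proMMP2. It stood at 4.47 and 3.63 TPM in WT, 2.13 and 2.21 in NFIB-cKO, 6.13 and 4.53 in NFIX-cKO and 1.78 and 2.07 in NFIB/X-dKO. All NFIB-deleted libraries lay below all NFIB-carrying ones, by about the same amount in NFIB-cKO and NFIB/X-dKO. It fell by 0.89 ± 0.15 (SE) across the NFIB-deleted libraries (limma, adjusted p = 0.0349). The single contrasts with WT were not past the test, at -0.78 in NFIB/X-dKO (adjusted p = 0.125) and -0.67 in NFIB-cKO (adjusted p = 0.245). In NFIB/X-dKO against WT it was called lower with the number run as a covariate (-0.94, adjusted p = 0.0358) and after median-of-ratios scaling (-0.90, adjusted p = 0.0371). Against NFIX-cKO, counts of 1042 and 861 stood beside 277 and 340 in NFIB/X-dKO (edgeR -1.70 ± 0.18, adjusted p = 0.0672). In that contrast it was called lower by DESeq2 (-1.71, adjusted p = 1.70e-10) and by edgeR with no minimum (-1.71, adjusted p = 0.0241), but not by limma (-1.10, adjusted p = 0.0873). Leaving out any library but NFIX-cKO 88 ended the Mmp15 call across the NFIB-deleted libraries, at values from -0.95 to -0.79 and adjusted p from 0.0525 to 0.197, and so did testing with no minimum (adjusted p = 0.113).

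Mmp14 (chr14:54431612-54445364, plus strand), the membrane-anchored collagenase and main activator of proMMP2, was the highest Mmp gene. Its level was 58.39 and 124.31 TPM in WT, 195.52 and 159.99 in NFIB-cKO, 99.24 and 100.50 in NFIX-cKO and 95.51 and 107.23 in NFIB/X-dKO. Both NFIB-cKO libraries lay above all others, and the WT animals lay far apart, WT 34 being lowest of all. The NFIB-cKO difference from WT was 1.04 ± 0.32 (SE), not past the limma test (adjusted p = 0.219), and among the alternatives run it was called only when WT 82 was left out (1.58, adjusted p = 0.0256), as it then was across the NFIB-deleted libraries (0.80, adjusted p = 0.0267). In NFIB/X-dKO the difference from WT was 0.24 ± 0.32 (adjusted p = 0.678). All NFIB-cKO animals belong to the higher number run. In WT the animal of that run was the higher of the pair, whereas the NFIX-cKO animals of the lower and higher runs stood at 99.24 and 100.50 TPM. The part of the number run in the Mmp14 level was not tested.

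Mmp2 (chr8:92827291-92853420, plus strand), the gelatinase that MMP14 activates, was not called by limma or edgeR in the fits as designed. It stood at 79.16 and 35.59 TPM in WT, 31.14 and 40.09 in NFIB-cKO, 68.49 and 74.91 in NFIX-cKO and 30.86 and 32.95 in NFIB/X-dKO. NFIX-cKO lay above both NFIB-deleted groups, whereas WT 82 lay within the NFIB-cKO range. The difference across the NFIB-deleted libraries was -0.86 ± 0.24 (limma, adjusted p = 0.137), and that of NFIB/X-dKO from NFIX-cKO was -1.43 (edgeR, adjusted p = 0.0890). Without WT 82 limma called it lower in NFIB/X-dKO against WT (-1.29, adjusted p = 0.0441) and across the NFIB-deleted libraries (-1.14, adjusted p = 0.0143). Against NFIX-cKO it was called lower by DESeq2, by edgeR with no minimum (-1.44, adjusted p = 0.0312) and by edgeR without NFIX-cKO 32 (-1.62) or NFIX-cKO 88 (-1.21). Mmp11, a stromelysin-like enzyme often found in stroma, stood at 7.41 and 12.26 TPM in WT, 13.42 and 9.74 in NFIB-cKO, 8.74 and 9.64 in NFIX-cKO and 5.99 and 6.24 in NFIB/X-dKO. Its NFIB/X-dKO libraries were the lowest, and DESeq2 called it lower against NFIX-cKO while edgeR on all 4 libraries did not.

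The secreted collagenases and stromelysins of the chromosome 9 cluster, which are known for their induction in wounds and inflammation, were low. The 10 Mmp genes between chr9:7272514-7699585 reached at most 0.89 TPM (Mmp12) in any library, at most 0.36 without Mmp12 (Mmp3) and at most 0.05 without both. Mmp12 was above the floor of 3 counts, at 52.47 to 146.95 expected counts in the libraries with counts. Mmp9, the second gelatinase, stood at 0.46 and 0.21 TPM in WT, 0.35 and 0.35 in NFIB-cKO, 0.91 and 0.28 in NFIX-cKO and 0.64 and 0.64 in NFIB/X-dKO. Its highest library was NFIX-cKO 32, the animal that also differed from its partner in the suprabasal keratins described with the marker genes. None of these genes reached the limma minimum.

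Of the 33 Adam genes, 6 passed the limma minimum, and Adam10 was called. Adam10 (chr9:70678997-70780229, plus strand), the sheddase that releases the outer part of Notch receptors and of several EGF ligands, stood at 17.01 and 15.56 TPM in WT, 30.13 and 26.04 in NFIB-cKO, 21.20 and 18.82 in NFIX-cKO and 31.04 and 30.68 in NFIB/X-dKO. All NFIB-deleted libraries lay above all NFIB-carrying ones, and both NFIX-cKO libraries lay above WT and below NFIB-cKO. By limma it rose by 0.88 ± 0.15 (SE) in NFIB/X-dKO against WT (adjusted p = 0.0283) and by 0.68 ± 0.10 across the NFIB-deleted libraries (adjusted p = 0.0243). In NFIB-cKO against WT it was 0.75 ± 0.15 (adjusted p = 0.0874), called after median-of-ratios scaling (adjusted p = 0.0462) or with the number run as a covariate (adjusted p = 0.0440). The call against WT ended within the lower number run (0.82, adjusted p = 0.0632), in a fit of these groups alone (adjusted p = 0.0657) and without WT 34, WT 82, NFIB-cKO 81, NFIB-cKO 85, NFIB/X-dKO 33 or NFIB/X-dKO 36, at 0.82 to 0.94 with adjusted p from 0.0501 to 0.258. The call across the NFIB-deleted libraries ended without any of the 4 NFIB-deleted libraries or NFIX-cKO 88, at 0.62 to 0.73 with adjusted p from 0.0664 to 0.160.

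Adam17 (chr12:21323509-21373632, minus strand), the sheddase of TNF and of other EGF ligands and the closest relative of Adam10, stood at 26.21 and 21.68 TPM in WT, 29.23 and 23.90 in NFIB-cKO, 25.81 and 22.12 in NFIX-cKO and 27.73 and 30.74 in NFIB/X-dKO. The NFIB/X-dKO libraries lay above WT by 0.28 ± 0.17 (SE), which was not past the test (limma, adjusted p = 0.431, 95% interval -0.13 to 0.69). The ranges of the single knockouts overlapped that of WT. Its exons share 311 of 7154 bases with Iah1, a gene at 29.16 to 39.76 TPM. Adam15, a membrane-bound ADAM that binds integrins, was the highest of the family, at 79.58 and 106.19 TPM in WT, 114.74 and 109.99 in NFIB-cKO, 74.02 and 100.84 in NFIX-cKO and 96.06 and 93.16 in NFIB/X-dKO. Adam9, a widely expressed sheddase, lay between 19.83 and 26.01 TPM in all libraries. Neither differed from WT in NFIB/X-dKO beyond the spread, at 0.04 and 0.02. Adam1a lay at 3.26 and 3.45 TPM in WT, 2.54 and 2.85 in NFIB-cKO, 1.66 and 1.44 in NFIX-cKO and 1.93 and 1.41 in NFIB/X-dKO, lower in every knockout library. That value is uncertain, since 4779 of its 7508 exon bases are shared with Gm42878 on the same strand, at 0.72 to 2.43 TPM, and 1805 with Mapkapk5, at 55.14 to 66.19 TPM, and the use of strand in counting is not given in the sources used here.

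**Figure D4:**
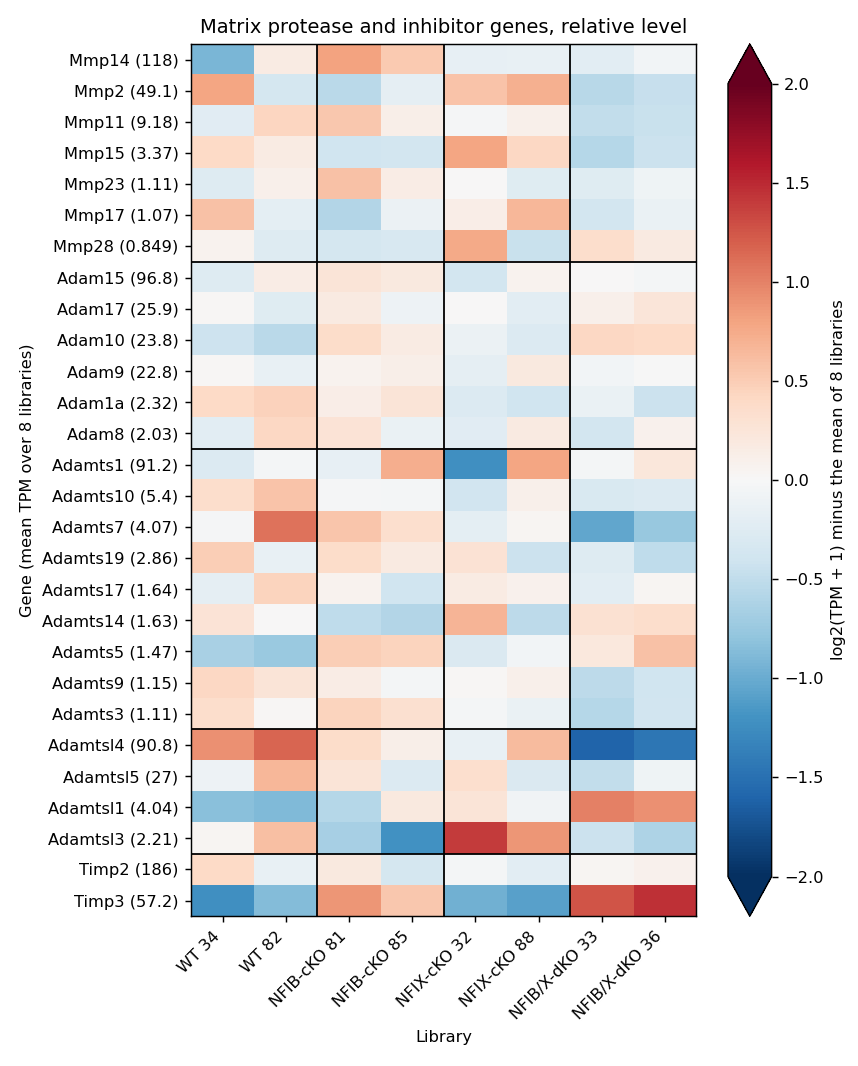
Log2(TPM + 1) of the tested members, in rows by family, in each of the 8 libraries, minus the mean of the gene over the libraries (red above, blue below). Timp3, Adam10 and Adamts5 are high in the 4 NFIB-deleted libraries, and Adamtsl3 and Mmp15 are low in them. Adamtsl4 is lowest in NFIB/X-dKO and lies above its mean in both NFIB-cKO libraries.

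Of the 19 Adamts genes, 9 passed the minimum, and Adamts5 was called. Adamts5 (chr16:85856173-85901828, minus strand), the aggrecanase that also cuts versican, stood at 0.49 and 0.40 TPM in WT, 2.30 and 2.19 in NFIB-cKO, 0.91 and 1.25 in NFIX-cKO and 1.72 and 2.53 in NFIB/X-dKO. WT was lowest, NFIX-cKO lay above it, and the NFIB-deleted libraries lay above all others without separating NFIB-cKO from NFIB/X-dKO. It rose by 0.87 ± 0.16 (SE) across the NFIB-deleted libraries (limma, adjusted p = 0.0427). The contrasts with WT were 1.10 ± 0.23 in NFIB/X-dKO (adjusted p = 0.0578) and 1.17 ± 0.23 in NFIB-cKO (adjusted p = 0.0874), neither past the test. The Adamts5 call ended after median-of-ratios scaling (0.81, adjusted p = 0.0618), with no minimum (adjusted p = 0.112) and when any of the 8 libraries was left out (0.78 to 0.97, adjusted p from 0.0697 to 0.263).

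Adamts1 (chr16:85793827-85803113, minus strand), a versican-cutting protease whose gene lies 53059 bases from Adamts5, was far more abundant and varied between animals rather than genotypes. It stood at 69.78 and 81.76 TPM in WT, 74.77 and 140.69 in NFIB-cKO, 35.43 and 146.36 in NFIX-cKO and 82.21 and 98.62 in NFIB/X-dKO. The lowest and the highest library of the series were both NFIX-cKO, so that the range of this group spanned every other library, and Adamts1 was called in no contrast as designed. Of the remaining higher members, Adamts10, a fibrillin-binding protease, stood at 7.01 and 8.23 TPM in WT, 5.12 and 5.07 in NFIB-cKO, 3.78 and 5.71 in NFIX-cKO and 4.08 and 4.19 in NFIB/X-dKO, with every knockout library below WT and no call (NFIB/X-dKO against WT -0.74, adjusted p = 0.146). Adamts7, which can cut cartilage oligomeric matrix protein, stood at 3.51 and 8.79 TPM in WT, 5.79 and 4.80 in NFIB-cKO, 3.01 and 3.73 in NFIX-cKO and 1.24 and 1.71 in NFIB/X-dKO. Its NFIB/X-dKO libraries were the lowest of the series (against WT -1.43, adjusted p = 0.101). Adamts19 stood at 4.28 and 2.39 TPM in WT, 3.83 and 3.25 in NFIB-cKO, 3.60 and 1.78 in NFIX-cKO and 2.13 and 1.63 in NFIB/X-dKO, and it was not called in any contrast as designed. Adamts3, a procollagen N-proteinase, stood at 1.64 and 1.09 TPM in WT, 1.80 and 1.56 in NFIB-cKO, 1 and 0.87 in NFIX-cKO and 0.38 and 0.58 in NFIB/X-dKO, the lowest libraries again being NFIB/X-dKO. Adamts20, a versican-cutting protease, lay under the minimum, at 0.06 and 0.04 TPM in WT, 0.28 and 0.25 in NFIB-cKO, 0.19 and 0.14 in NFIX-cKO and 0.59 and 0.56 in NFIB/X-dKO. Every knockout library lay above WT and the NFIB/X-dKO libraries lay above all others. With no minimum, limma called it higher in NFIB/X-dKO against WT (0.58, adjusted p = 0.0133) and across the NFIB-deleted libraries (0.35, adjusted p = 0.0221). Against NFIX-cKO, counts of 37 and 24 stood beside 139 and 140, a difference that DESeq2 called (2.11, adjusted p = 0.000348) and edgeR did not (2.12 ± 0.35, adjusted p = 0.137).

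The ADAMTS-like genes held the largest falls. Adamtsl4 (chr3:95676201-95687917, minus strand), a microfibril-binding protein known from lens dislocation, was the highest of them, at 142.80 and 168.58 TPM in WT, 96.89 and 81.64 in NFIB-cKO, 67.88 and 117.58 in NFIX-cKO and 23.95 and 26.92 in NFIB/X-dKO. Every knockout library lay below both WT libraries, the single knockouts overlapped each other, and NFIB/X-dKO lay below all. By limma it fell by 2.56 ± 0.25 (SE) in NFIB/X-dKO against WT (adjusted p = 0.00548) and by 1.29 ± 0.18 across the NFIB-deleted libraries (adjusted p = 0.0180). The differences from WT were -0.80 in NFIB-cKO (adjusted p = 0.241) and -0.79 in NFIX-cKO (adjusted p = 0.605), neither past the test. Against NFIX-cKO, counts of 8792.38 and 15035.34 stood beside 2223.86 and 2913.97 in NFIB/X-dKO (edgeR -2.31, adjusted p = 0.118). In that contrast it was called lower by DESeq2 (-2.33, adjusted p = 2.84e-09), by limma (-1.78, adjusted p = 0.0389) and by edgeR with no minimum (-2.32, adjusted p = 0.0382). The call against WT ended without NFIB/X-dKO 33 (-2.48, adjusted p = 0.0575), and without NFIB/X-dKO 36 (-2.65, adjusted p = 0.050028, just over the threshold). The call across the NFIB-deleted libraries ended without WT 82 or any of the 4 NFIB-deleted libraries, at -1.35 to -1.22 with adjusted p from 0.0517 to 0.0893, and with no minimum (adjusted p = 0.0639). Within the lower number run the fall against WT was -2.45 (adjusted p = 0.0166).

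Adamtsl3 (chr7:82335694-82614450, plus strand), a related matrix protein without protease domain, was low in the NFIB-deleted groups. It stood at 1.78 and 3.10 TPM in WT, 0.71 and 0.17 in NFIB-cKO, 6.12 and 4.01 in NFIX-cKO and 1.01 and 0.77 in NFIB/X-dKO. NFIX-cKO was highest, and the NFIB-deleted libraries lay below all NFIB-carrying ones. Against WT the differences were -0.84 in NFIB/X-dKO (adjusted p = 0.247), -1.26 in NFIB-cKO (adjusted p = 0.142) and 0.82 in NFIX-cKO (adjusted p = 0.696), none past the limma test. It fell by 1.46 ± 0.22 (SE) across the NFIB-deleted libraries (limma, adjusted p = 0.0246). Against NFIX-cKO, expected counts of 1374 and 971 stood beside 180 and 184 in NFIB/X-dKO, which edgeR called (-2.76 ± 0.20, adjusted p = 0.0457) and limma did not (-1.66, adjusted p = 0.0807). The edgeR call ended without NFIB/X-dKO 33 (-2.77, adjusted p = 0.245) and without NFIB/X-dKO 36 (-2.74, adjusted p = 0.331). The limma call ended with no minimum (adjusted p = 0.0900) and without WT 82 or any of the 4 NFIB-deleted libraries (-1.60 to -1.32, adjusted p from 0.0580 to 0.127).

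Adamtsl1 (chr4:85514172-86428385, plus strand), also known as punctin, was the only gene with the Adamtsl name that was called higher. It stood at 1.52 and 1.45 TPM in WT, 2.04 and 4.15 in NFIB-cKO, 4.37 and 3.27 in NFIX-cKO and 8.06 and 7.48 in NFIB/X-dKO. Every knockout library lay above WT, and NFIB/X-dKO lay above every other library. By limma it rose by 1.82 ± 0.28 (SE) in NFIB/X-dKO against WT (adjusted p = 0.0233). In NFIX-cKO against WT it was 0.95 (adjusted p = 0.553), and the step from NFIB-cKO to NFIB/X-dKO was 1.15 ± 0.28 (adjusted p = 0.240). The call ended within the lower number run (1.80, adjusted p = 0.0982), with no minimum (adjusted p = 0.0823) and without WT 34, WT 82, NFIB/X-dKO 33 or NFIB/X-dKO 36 (1.77 to 1.87, adjusted p from 0.0632 to 0.194). Adamtsl5, a secreted microfibril-associated relative, stood at 24.20 and 41.80 TPM in WT, 31.31 and 21.33 in NFIB-cKO, 33.08 and 21.28 in NFIX-cKO and 18.26 and 24.58 in NFIB/X-dKO, with no call in any contrast as designed.

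Genes that act with these families were followed in lists chosen for their function. The first list held 19 regulators of MMP and ADAM enzymes, such as the convertases that activate the proenzymes and the membrane inhibitor Reck. Of these, 13 were tested by limma and 17 by edgeR, and 0 were called in any of the 7 contrasts. Furin, the main convertase, lay between 29.5 and 46.94 TPM. Pcsk6, another convertase, stood at 26.32 and 18.32 TPM in WT, 44.65 and 57.51 in NFIB-cKO, 50.52 and 14.91 in NFIX-cKO and 86.76 and 97.45 in NFIB/X-dKO. Its NFIB/X-dKO libraries were the highest, at 2.02 above WT without passing the test (limma, adjusted p = 0.0920). The plasminogen system (of 11, 7 tested by limma and 9 by edgeR) also had 0 called in all contrasts. So did the EGF family ligands, which ADAM enzymes release (of 11, 9 tested by limma and 10 by edgeR). Of the ligands, Hbegf lay at 22.4 and 80.3 TPM in WT, 31.26 and 59.45 in NFIB-cKO, 18.28 and 67.26 in NFIX-cKO and 20.93 and 21.59 in NFIB/X-dKO.

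The other lists each held at most 1 called gene in a contrast. Of 12 cathepsins and cystatins tested, lysosomal proteases and their inhibitors, 1 rose in NFIB/X-dKO against WT: Ctsh, at 59.03 and 59.52 TPM in WT, 70.67 and 82.85 in NFIB-cKO, 89.04 and 73.19 in NFIX-cKO and 123.84 and 120.49 in NFIB/X-dKO (1.03 ± 0.14 SE, limma, adjusted p = 0.0163). The list's median was 0.02 beside 0.16 over all genes. Of 4 astacin proteases and enhancers tested, which process procollagen, 1 fell in NFIB/X-dKO against NFIX-cKO: Tll1 (edgeR -3.14, adjusted p = 0.0459), at 2.11 and 2.08 TPM beside 0.31 and 0.25. Of 10 tested matrix proteins that ADAMTS and ADAMTSL proteins cut or bind, Ltbp2 fell, a microfibril protein that binds fibrillin. It stood at 89.03 and 52.61 TPM in WT, 3.76 and 4.62 in NFIB-cKO, 16.18 and 19.93 in NFIX-cKO and 1.7 and 3.01 in NFIB/X-dKO. The groups lay apart in the order WT, NFIX-cKO, NFIB-cKO and NFIB/X-dKO, with falls of 4.40 in NFIB/X-dKO (adjusted p = 0.00242) and 3.75 in NFIB-cKO (adjusted p = 0.00505) against WT by limma, and stood at -3.14 across the NFIB-deleted libraries (adjusted p = 0.00327). The median of that list was -0.27 beside 0.16 over all genes in NFIB/X-dKO against WT.

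Markers of other skin cells differed between libraries and, for sebocyte markers as for Col1a1 above, between genotypes. The sebocyte markers Scd1, Elovl3 and Far2 fell in NFIB/X-dKO against WT (-2.79, -3.77 and -2.60, limma, adjusted p = 0.00501, 0.00428 and 0.00552) and across the NFIB-deleted libraries. The other listed sebocyte marker, Mgst1, went the opposite way, from 243.14 and 239.41 TPM in WT to 313.53 and 324.28 in NFIB/X-dKO. Its difference was not past the test (0.40, limma, adjusted p = 0.132). With Mgst1, the list summed to 379.95 and 469.61 TPM in WT, 280.69 and 263.1 in NFIB-cKO, 366.09 and 354.56 in NFIX-cKO and 336.29 and 346.39 in NFIB/X-dKO. The melanocyte markers summed to 8.76 and 18.65 TPM in WT, 26.94 and 25.15 in NFIB-cKO, 17.35 and 13.21 in NFIX-cKO and 18.52 and 19.28 in NFIB/X-dKO, highest in NFIB-cKO, and none of the 4 was called in NFIB/X-dKO against WT or across the NFIB-deleted libraries. Endothelial markers summed to 1.25 to 2.11 TPM and smooth muscle markers to 2.07 to 3.63 TPM. The part of these cells in the members' differences was not tested.

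The suprabasal markers Krt1, Krt10, Lor and Ivl summed to 1271.87 and 695.43 TPM in WT, 440.67 and 371.23 in NFIB-cKO, 2095.41 and 513.14 in NFIX-cKO and 1525.01 and 1488.67 in NFIB/X-dKO, so both NFIB-cKO libraries were low and both NFIB/X-dKO libraries were high. Beside them Mmp28, the epidermal epilysin, stood at 0.86 and 0.49 TPM in WT, 0.40 and 0.42 in NFIB-cKO, 2.01 and 0.31 in NFIX-cKO and 1.28 and 1.02 in NFIB/X-dKO. NFIX-cKO 32 was highest and the NFIB/X-dKO libraries were next in both. Mmp12, the macrophage elastase, stood at 0.52 and 0.40 TPM in WT, 0.34 and 0.30 in NFIB-cKO, 0.84 and 0.27 in NFIX-cKO and 0.89 and 0.84 in NFIB/X-dKO. The 6 leukocyte markers summed to 25.22 and 24.86 TPM in WT, 30.66 and 25.94 in NFIB-cKO, 9.08 and 18.73 in NFIX-cKO and 17.42 and 17.4 in NFIB/X-dKO. Most of that sum was Cd68, at 23.08 and 23.07 TPM in WT, 30.01 and 25.04 in NFIB-cKO, 6.41 and 17.94 in NFIX-cKO and 14.9 and 15.23 in NFIB/X-dKO, whereas Csf1r stood at 0.6 and 0.54, 0.21 and 0.24, 0.98 and 0.2, and 0.85 and 0.82 TPM in the same order. Cd68 and the sum were thus highest in NFIB-cKO, where Mmp12 was low, while Csf1r was highest in the 3 libraries in which Mmp12 was highest. The other listed markers, Ptprc, Adgre1, Itgam and Cd3e, went with Csf1r in NFIB-cKO and not with Cd68. Each was lower in both NFIB-cKO libraries than in both WT and both NFIB/X-dKO libraries, at or under 0.67 TPM throughout. The part of suprabasal cells and leukocytes in the levels of Mmp28 and Mmp12 was not tested.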

How the data were processed

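RNA of sorted hair follicle stem cells was sequenced in 8 libraries (TRIzol LS, Direct-zol, TruSeq mRNA, paired ends on HiSeq, per the labels' protocols). The authors deposited a TPM table for all libraries and, for NFIB-cKO 85 and both NFIX-cKO and NFIB/X-dKO libraries, gene tables with expected counts, TPM and FPKM. The deposited FPKM entered no test. RSEM 1.2.30, Bowtie2 2.2.9 and mm10 are named in the submitters' processing notes. The annotation release is not given in the sources used here. Of the table's 46609 features, 92 were spike-ins and were left out. All columns were matched to libraries by title, and every library carries another animal number, so replicates were taken as animals.

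Log2(TPM + 1) was fitted with limma 3.58.1 (R 4.3.3, variance trend, genes with at least 1 TPM in at least 2 libraries) over all 8 libraries, with 4 residual and 3.10 prior degrees of freedom. Expected counts rounded to whole numbers were fitted with edgeR 4.0.16 (quasi-likelihood, TMM, filterByExpr) and, as an alternative, DESeq2 1.42.0. This was done where both groups had counts, NFIX-cKO and NFIB/X-dKO. The SE of an edgeR difference is approximate, its size divided by the root of F. Adjusted p values are Benjamini-Hochberg over all genes tested. Coordinates and exon overlaps came from GENCODE M21, which held all 84 members, and promoter sequences from RefSeq. The steps were tested on simulated data.

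The name rule and the lists were chosen with earlier results of these data known, though no measured value entered the name rule. Members named were Timp1 to Timp4, those past a test, the 4 highest of each other family, the 3 with the smallest p where fewer than 3 passed, and Mmp2, Mmp9, Mmp14, Adam10 and Adam17. Mmp12, Mmp28, Adamts20, the marker genes and the list genes Pcsk6, Furin and Hbegf were added after their values were seen. Alternatives were another pseudocount, no minimum, median-of-ratios scaling, the animal number run as a covariate or within it, the compared groups alone, and each library left out.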

Additional observations from a re-analysis of the deposited data

How the results depend on the processing

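Counts here are of called members. The share over all genes is not given for most alternatives, so a change of count does not speak about the members alone. Against WT, NFIB/X-dKO had 4 called members, 2 within the lower number run and between 1 and 4 with a library left out (1, Timp3, without NFIB/X-dKO 33 or NFIB/X-dKO 36). With median-of-ratios scaling it had 5, of which 3 were higher and 2 lower, against 3 and 1 without it. NFIB-cKO against WT had 1, and 0 with no minimum, 0 within the higher number run, 2 after scaling, 2 with the number run as a covariate and 0 to 2 with a library left out (0 without WT 34, NFIB-cKO 81 or NFIB-cKO 85). NFIB/X-dKO against NFIB-cKO had 0, and 0 to 1 with a library left out (Adamtsl4 without NFIX-cKO 32 or 88). NFIB/X-dKO against NFIX-cKO had 2 by edgeR, 11 by DESeq2, 5 with no minimum and 0 to 28 with a library left out. NFIB-deleted against NFIB-carrying had 6, 3 with no minimum and 1 to 4 with a library left out. NFIX-cKO against WT and the non-additive contrast had 0 under every alternative run. The cause of these changes was not tested, except that a left-out library leaves fewer samples.

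The next tally took, in each contrast, Timp3 and the called members, or the 3 with the smallest p where fewer than 3 passed. A call gained by any other member is not in it. Of its 334 values under alternatives, 263 kept direction and side of the threshold, and 61 kept direction and lost the call. A further 8 gained a call and 2 changed sign. Those 2 were Timp3 in NFIX-cKO against WT, at -0.16 without WT 34 and -0.05 without NFIX-cKO 32, beside 0.02 (range with a library left out -0.16 to 0.19). No paired analysis was possible because the animal numbers differ in every group. Depth is unknown for 3 libraries, and 2 animals a group limit every test.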
